A study of Homo sapiens with 12 samples.

Results

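The plexin and neuropilin receptors were followed in HEK293, a line from human embryonic kidney, through 10 genes picked by symbol out of the 58735 genes in the deposited tables: PLXNA1, PLXNA2, PLXNA3, PLXNA4, PLXNB1, PLXNB2, PLXNC1, PLXND1, NRP1 and NRP2. All 10 were found, each with a single row, and all 10 passed the filter on low counts. The list follows the gene family and was drawn up with earlier results of these libraries known. It names the few PLXNA4 reads in adherent knockdown cells, so every PLXNA4 comparison that uses those libraries is given below as a description without a test. The plexin PLXNB3 is not among the 10 and is described apart.

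The study grew 2 kinds of HEK293 cells in 2 ways, with 3 libraries of poly-A RNA in each of 4 groups. Wild-type (WT) cells and cells with a knockdown of EXT1 (kd_EXT1), a polymerase of heparan sulfate chains, were each kept attached in T75 flasks in DMEM with FBS or shaken at 120 rpm in suspension in serum-free EX-CELL 293, at 37 °C and 5% CO2. All were collected after 5 passages, adherent cells with trypsin. Medium, serum, shaking and harvest thus differ between the cultures all at once, and wild-type and knockdown cells shared each of these within a culture. The labels give neither the knockdown method nor whether the knockdown line was a clone, and do not say whether the replicates were separate cultures, so the p-values reflect library-to-library spread that may be purely technical.

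Library totals ran from 13911604 to 21393059 reads. EXT1 itself was at 53.2, 53.1 and 51.8 CPM (reads scaled to library size with TMM factors) in wild-type and 12.5, 11.99 and 11.9 CPM in knockdown adherent libraries, and at 49.5, 54.6 and 47.9 CPM against 15.4, 13.1 and 15.3 CPM in suspension, as the labels say. All 8 neuronal and kidney genes looked up for HEK293 passed the filter, with summed levels of 446 to 687 CPM per library. Most of that sum was VIM, with group means of 256 to 370 CPM. NEFL had group means of 107 to 163 CPM, and those of PAX2 and NEFM lay between 1.89 and 5.93 CPM. Of 8 endothelial markers 4 passed, at 2.25 to 5.30 CPM in sum, with CDH5, PECAM1 and TIE1 each under 0.1 CPM in every group mean. Of 8 leukocyte markers only CD14 passed, and the list summed to 0.804 to 2.12 CPM. Fibroblast markers, 5 of 8 passing, summed to 19.5 to 22.9 CPM in wild-type adherent and 31.6 to 36.3 CPM in adherent knockdown libraries, where COL1A2, DCN and THY1 were at or near 0. In suspension the sums were 30.6 to 33.2 CPM (wild type) and 30.3 to 33.3 CPM (knockdown). Carcinoma epithelium markers, 5 of 7 passing, summed in adherent libraries to 366 to 437 CPM (wild type) and 555 to 566 CPM (knockdown), and were at 468 to 517 and 388 to 443 CPM in wild-type and knockdown suspension. KRT5 and KRT7 were at or near 0. The part of these markers in the plexin and neuropilin changes was not tested. In bulk RNA, fewer cells of a type and less RNA per cell cannot be told apart.

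Plexins are single-pass receptors for semaphorins, secreted or membrane-bound guidance cues first studied in growing axons. Binding of a semaphorin releases a GTPase-activating domain in the plexin's cytoplasmic part, which acts on Ras-family GTPases such as Rap and leads to loss of integrin adhesion and actin filaments. Neuropilins have a short cytoplasmic tail and act as co-receptors, for class 3 semaphorins together with A-type plexins and for VEGF together with its receptor kinases. Neuropilin-1 binds heparin and heparan sulfate through the same extracellular region that binds VEGF.

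RefSeq lists 11 upstream windows for 9 of the members on GRCh38.p14. NRP1 has no entry in that table. The 250 bases before the transcription start are shown for the 3 members whose group means spread most, PLXNA4, PLXNC1 and PLXNB2, and for PLXNB1, which had the largest knockdown rise. They lie at chr7:132576471-132576720 (minus strand), chr12:94148327-94148576 (plus strand), chr22:50301670-50301919 (minus strand) and chr3:48430087-48430336 (minus strand). Capitals mark the GC box GGGCGG, the ETS core CCGGAA and the E-box CACGTG, each searched on both strands with overlapping matches kept.
PLXNA4: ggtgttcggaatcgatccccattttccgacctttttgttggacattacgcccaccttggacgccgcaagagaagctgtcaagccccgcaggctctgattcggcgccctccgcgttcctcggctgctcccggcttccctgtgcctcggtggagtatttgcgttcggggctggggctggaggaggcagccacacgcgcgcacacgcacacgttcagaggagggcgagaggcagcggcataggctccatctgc
PLXNC1: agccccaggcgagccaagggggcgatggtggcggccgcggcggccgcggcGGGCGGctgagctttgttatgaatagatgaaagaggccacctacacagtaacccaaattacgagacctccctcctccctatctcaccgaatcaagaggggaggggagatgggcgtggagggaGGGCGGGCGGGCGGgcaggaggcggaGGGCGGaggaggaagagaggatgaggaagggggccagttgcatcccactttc
PLXNB2: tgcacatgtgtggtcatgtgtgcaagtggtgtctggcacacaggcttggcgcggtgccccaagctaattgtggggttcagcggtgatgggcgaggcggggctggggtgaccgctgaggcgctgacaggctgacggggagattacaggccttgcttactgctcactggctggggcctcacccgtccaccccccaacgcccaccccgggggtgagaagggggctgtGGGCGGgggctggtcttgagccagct
PLXNB1: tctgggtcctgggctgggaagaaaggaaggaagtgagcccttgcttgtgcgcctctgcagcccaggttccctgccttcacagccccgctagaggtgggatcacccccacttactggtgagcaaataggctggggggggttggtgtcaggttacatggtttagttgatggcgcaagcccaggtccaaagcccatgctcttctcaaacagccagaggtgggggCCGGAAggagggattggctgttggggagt

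The PLXNA4 window held none of the 3 motifs, the PLXNC1 window held 5 GC boxes, the PLXNB2 window held 1 GC box, and the PLXNB1 window held 1 ETS core. Over 35116 RefSeq windows of the same length, 42.6% held a GC box, 14.5% an ETS core and 6.34% an E-box. G and C made up 63.6%, 65.2%, 66.4% and 59.6% of the 4 windows, against a median of 58% over all windows, with quartiles of 46.4% and 68%. PLXNB1 and PLXNC1 each have a second listed start. The second PLXNB1 window (chr3:48429345-48429594) held 5 GC boxes and 1 ETS core at 79.2% G and C. No member's window held an E-box. The PLXNA4 and PLXNB2 windows lie inside the bounds of these genes in the deposited tables, whose models begin further upstream. These matches describe the letters of the windows and not binding.

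Levels of different genes were set against each other in the deposited FPKM, which divide reads by gene length and by library size. PLXNB2, a B-type plexin that binds semaphorins of class 4, was the most abundant member by mean in every group. Attached, it was at 18.5, 19.4 and 23.1 FPKM in wild type and 15.3, 16.3 and 16.6 FPKM in the knockdown. In suspension it was at 48.2, 47.7 and 44.7 FPKM in wild type and 37.3, 35.3 and 36.8 FPKM in the knockdown. PLXNA1, a receptor of class 3 and class 6 semaphorins, came next with 10.6 ± 1.16, 15.3 ± 0.283, 7.56 ± 0.538 and 8.13 ± 0.655 FPKM in the same order (SD, n = 3). In adherent knockdown libraries the PLXNB2 and PLXNA1 ranges overlapped. In the other 3 groups they did not.

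NRP1 held rank 3 in every group, at 7.35 ± 0.852, 6.43 ± 0.143, 6.38 ± 0.189 and 7.47 ± 0.0490 FPKM in the same order of groups (SD, n = 3). Below it PLXNA3, PLXND1, PLXNA2, NRP2 and PLXNB1 had group means between 1.45 and 5.84 FPKM and changed places between groups. Ranges of neighbours in that order overlapped for PLXNA3 and PLXNA2 and for NRP2 and PLXND1 in wild-type adherent libraries, for PLXNA2 and PLXNB1 in both knockdown groups, and for PLXNA3 and PLXND1 and for NRP2 and PLXNB1 in wild-type suspension. PLXNC1, the receptor of the membrane-anchored semaphorin SEMA7A, held rank 9 with 0.461 ± 0.0290, 0.353 ± 0.0461, 1.66 ± 0.0799 and 1.52 ± 0.1001 FPKM. PLXNA4 was lowest throughout.

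Summed over the 8 plexins, FPKM was 43.0 ± 4.69 in wild type and 47.3 ± 1.29 in the knockdown among adherent libraries, and 73.8 ± 1.91 and 64.2 ± 2.45 among suspension libraries (SD, n = 3). PLXNB2 made up 47.2 ± 0.930% (wild type) and 33.99 ± 0.949% (knockdown) of that sum in adherent libraries, and 63.5 ± 1.29% and 56.8 ± 0.845% in suspension. The PLXNA1 share was 24.8 ± 1.13%, 32.3 ± 1.22%, 10.3 ± 0.817% and 12.7 ± 0.533% in the same order. NRP1 exceeded NRP2 in all 12 libraries, with a ratio of FPKM between 1.91 and 3.16.

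**Figure D1:**
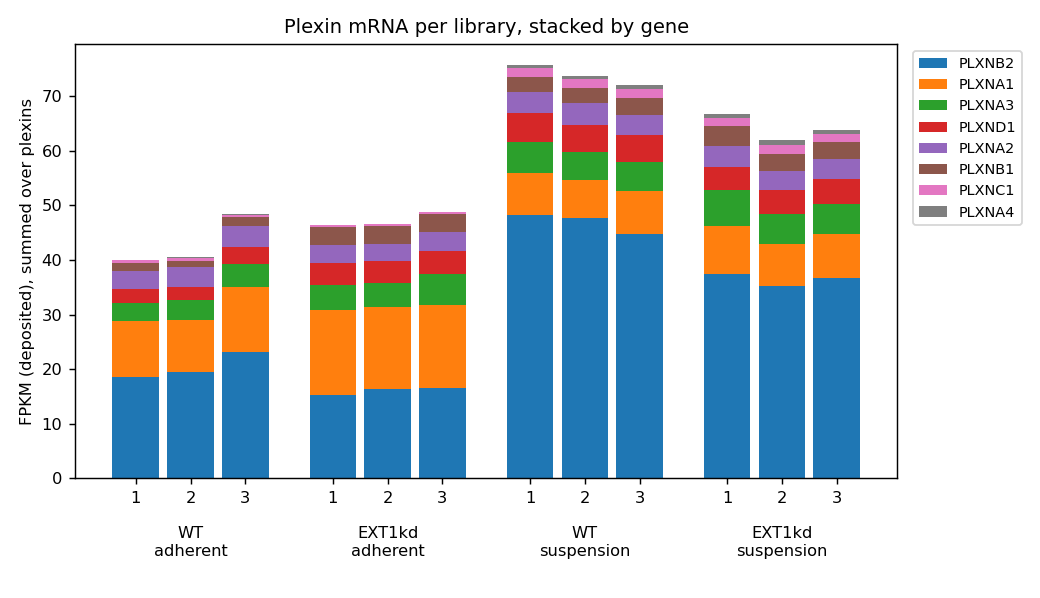
Deposited FPKM of the 8 plexins stacked for each of the 12 libraries (x axis, replicate number within the group; y axis, FPKM). PLXNB2 fills 46.2 to 47.8% of the bar in wild-type adherent libraries and 62.2 to 64.7% in wild-type suspension libraries.

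In attached cells the knockdown was set against wild type to see how the receptors stand when EXT1 is low. PLXNB1, PLXND1, PLXNA1 and PLXNA3 rose and PLXNB2 fell, while PLXNA2, PLXNC1, NRP1 and NRP2 did not pass. That made 5 of the 9 tested members, 4 higher and 1 lower, where 27.1% of the 17115 genes tested passed, 15.2% higher and 11.8% lower. The median log2 fold change of the 9 was -0.10, against -0.01 over all genes. In every test a gene passed at an adjusted p under 0.05 (Benjamini-Hochberg over all genes, edgeR's quasi-likelihood test), and fold changes below are log2 differences of fitted levels.

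Among the B-type plexins, PLXNB1 (chromosome 3 from 48403854 to 48430051, GRCh38, minus strand), the receptor of SEMA4D, was at 14.2, 12.4 and 16.1 CPM (wild type) and 31.9, 31.9 and 32.7 CPM (knockdown) in adherent libraries. Every knockdown library was above every wild-type library, for a 2.25-fold rise (1.17, SE 0.10, edgeR adjusted p = 1.52e-07). PLXNB2 (chromosome 22 from 50274979 to 50307627, minus strand) went the other way, from 136, 142 and 169.7 CPM to 113, 119 and 123 CPM. Its groups did not overlap either (-0.34, SE 0.08, edgeR adjusted p = 0.00330). The wild-type library with the highest PLXNB2 was replicate 3, and leaving out single libraries gave values from -0.40 to -0.23, all past the threshold.

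PLXND1 (chromosome 3 from 129555175 to 129606818, minus strand), known for binding SEMA3E without a neuropilin in blood vessels, went from 25.5, 23.4 and 32.2 CPM (wild type) to 38.8, 39.6 and 42.1 CPM (knockdown). The groups were apart (0.57, SE 0.10, edgeR adjusted p = 0.000282). PLXNA1 (chromosome 3 from 126988594 to 127037392, plus strand) moved from 115, 106 and 132 CPM to 172, 166 and 169 CPM, again without overlap (0.52, SE 0.08, edgeR adjusted p = 0.000160). PLXNB1, PLXND1 and PLXNA1 all lie on chromosome 3, whose 906 tested genes had a median log2 fold change of 0.25 in this comparison. With that median taken off, the 3 values were 0.92, 0.32 and 0.27. The part of the chromosome's shift in them was not tested.

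PLXNA3 (chromosome X from 154458281 to 154477779, plus strand), which pairs with NRP2 to receive SEMA3F, went from 38.2, 42.1 and 49.5 CPM (wild type) to 54.6, 52.3 and 67.5 CPM (knockdown) without overlap (0.43, SE 0.11, edgeR adjusted p = 0.00788). Knockdown replicate 3 was the highest, and without it the change was 0.30 and no longer passed (edgeR adjusted p = 0.0651). Chromosome X, where PLXNA3 lies, had a median of -0.10. PLXNA2 (chromosome 1 from 208022242 to 208244320, minus strand), a SEMA6A receptor, stayed within overlapping ranges at 47.1, 50.5 and 52.5 CPM and 46.8, 44.9 and 48.7 CPM (-0.10, SE 0.07, edgeR adjusted p = 0.363). PLXNC1 (chromosome 12 from 94148723 to 94307675, plus strand) was at 4.61, 4.88 and 4.32 CPM and 3.46, 4.02 and 3.14 CPM. Its groups did not overlap, yet the change did not pass (-0.39, SE 0.15, edgeR adjusted p = 0.0576), and it passed without EXT1kd adherent replicate 2 (edgeR adjusted p = 0.0389) or without WT adherent replicate 3 (edgeR adjusted p = 0.0498).

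Of the neuropilins, NRP1 (chromosome 10 from 33177492 to 33336262, minus strand) was at 87.6, 94.2 and 74.997 CPM (wild type) and 76.5, 73.04 and 75.6 CPM (knockdown) in adherent libraries. WT replicate 3 lay within the knockdown range (-0.19, SE 0.08, edgeR adjusted p = 0.0757), and without it the change was -0.28 and passed (edgeR adjusted p = 0.00249). NRP2 (chromosome 2 from 205681990 to 205798133, plus strand), which prefers SEMA3F and VEGF-C, was at 40.95, 45.1 and 42.9 CPM and 40.3, 40.9 and 39.6 CPM, apart by a small margin (-0.10, SE 0.08, edgeR adjusted p = 0.409).

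**Figure D2:**
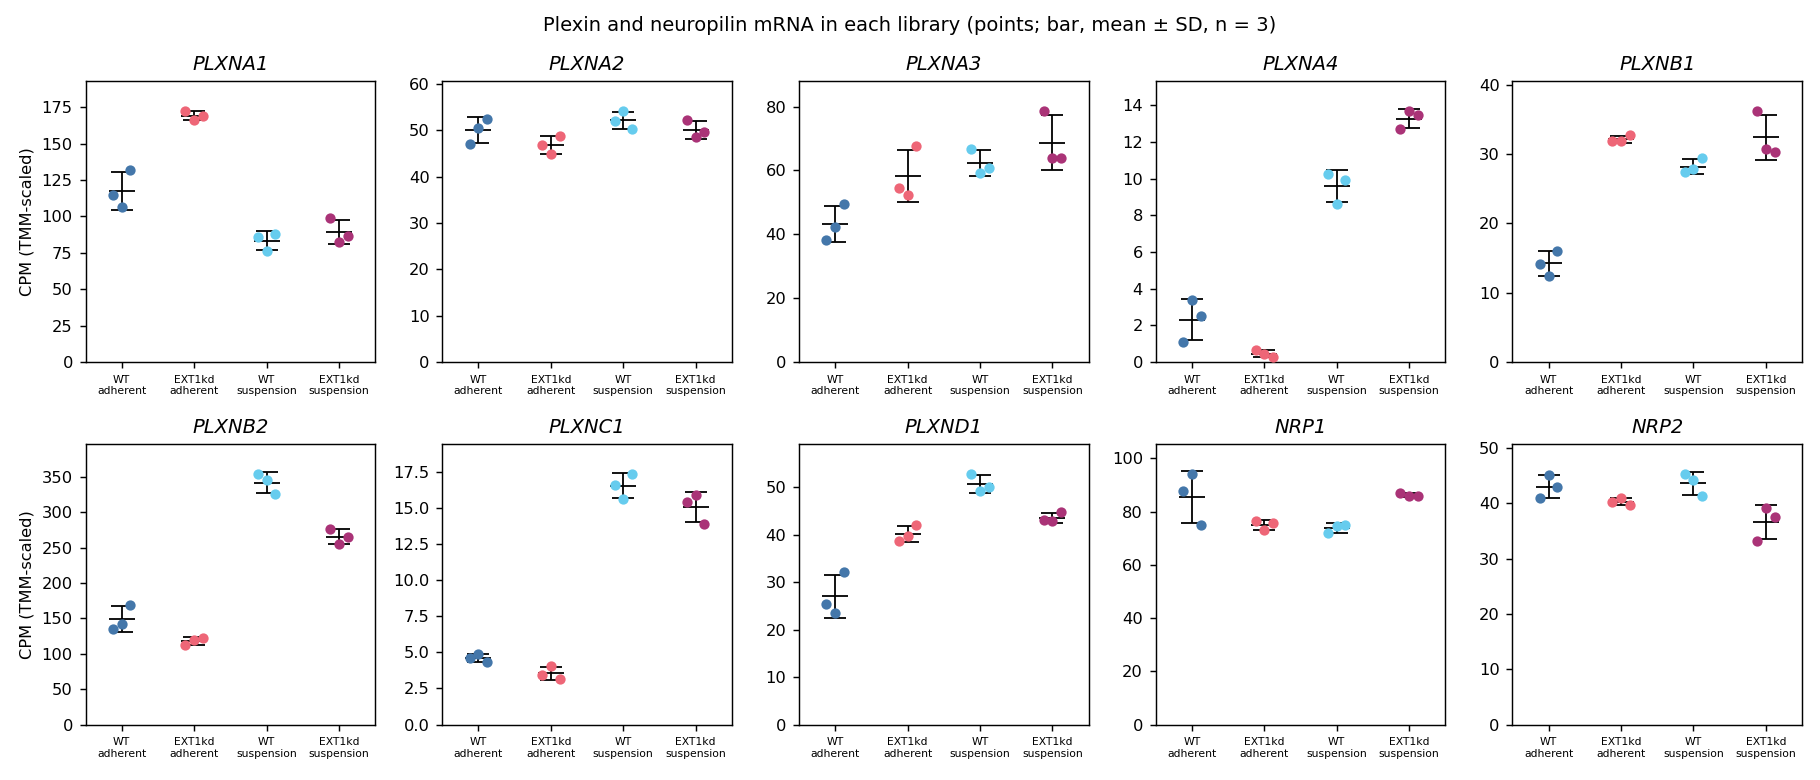
TMM-scaled CPM of the 10 genes in each of the 12 libraries (points, 3 per group; horizontal bar and whiskers, mean and SD; each y axis starts at 0 and has its own range). PLXNB1 is at 12.4 to 16.1 CPM in wild-type adherent libraries and at 27.4 CPM or more in the other 9, while PLXNC1 is under 5 CPM in all 6 adherent and over 13 CPM in all 6 suspension libraries.

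With the knockdown in suspension cells NRP1 rose and PLXNB2 and NRP2 fell, so that 3 of 10 members passed, 1 higher and 2 lower, where 20.9% of all tested genes passed, 8.29% higher and 12.6% lower. The median over the 10 was 0.02, against -0.001 over all genes. The count was 6 in a fit of the 6 suspension libraries alone, where 32.8% of all genes passed, and 1 on the log2(FPKM + 0.1) scale, where 18% did. It was also 1 when any of EXT1kd adherent replicates 1, 2 and 3, EXT1kd suspension replicates 1 and 3 or WT suspension replicates 1 and 2 was left out, and 5 without WT adherent replicate 2.

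PLXNB2 fell from 355, 345 and 327 CPM to 276, 256 and 265 CPM, with no overlap (-0.37, SE 0.08, edgeR adjusted p = 0.00212). Chromosome 22, which carries it, had a median of -0.28 over 443 genes in this comparison, and the value less that median was -0.09. How far the chromosome's shift enters the fall was not tested. PLXNB1 held 27.4, 27.8 and 29.4 CPM (wild type) against 36.2, 30.8 and 30.3 CPM (knockdown), groups apart, and did not pass (0.20, SE 0.10, edgeR adjusted p = 0.145). It passed in a fit of only the 6 libraries (edgeR adjusted p = 0.0477).

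NRP1 was at 71.9, 74.7 and 75.1 CPM (wild type) and 87.1, 85.8 and 85.99 CPM (knockdown) in suspension libraries, with every knockdown library higher (0.22, SE 0.08, edgeR adjusted p = 0.0441). The call was lost when any library other than WT adherent replicates 2 and 3 was left out (edgeR adjusted p from 0.0529 to 0.146). It was also lost without the filter on low counts and on both FPKM scales. NRP2 went from 45.3, 44.3 and 41.3 CPM to 33.2, 39.2 and 37.6 CPM, every knockdown library lower (-0.25, SE 0.08, edgeR adjusted p = 0.0317). That call was lost when any 1 of EXT1kd adherent replicates 1 to 3, EXT1kd suspension replicates 1 and 3 and WT suspension replicates 1 and 2 was left out (edgeR adjusted p from 0.0531 to 0.206), without TMM scaling, without the filter and on both FPKM scales. Without EXT1kd suspension replicate 1, the lowest library, the NRP2 change was -0.17.

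PLXND1 was at 52.8, 49.2 and 50.1 CPM against 43.02, 42.9 and 44.8 CPM, groups apart but short of the threshold (-0.22, SE 0.09, edgeR adjusted p = 0.105). It passed in a fit of only the 6 libraries (edgeR adjusted p = 0.0162), without WT adherent replicate 2 (edgeR adjusted p = 0.0404) and without WT adherent replicate 3 (edgeR adjusted p = 0.0207). PLXNA1 (0.10, edgeR adjusted p = 0.446), PLXNA2 (-0.06, edgeR adjusted p = 0.628), PLXNA3 (0.14, edgeR adjusted p = 0.401) and PLXNC1 (-0.13, edgeR adjusted p = 0.430) had overlapping groups.

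The difference between the knockdown effects, suspension minus adherent, was tested in the same model. Of 9 members 3 passed lower and 1 higher, where 24% of all genes passed, 14.6% lower and 9.45% higher. PLXNB1 had 1.17 in adherent cells and 0.20 in suspension, a difference of -0.97, SE 0.14, edgeR adjusted p = 7.05e-05. PLXND1 had 0.57 and -0.22, a difference of -0.79, SE 0.13, edgeR adjusted p = 0.000365. PLXNA1 had 0.52 and 0.10, a difference of -0.42, SE 0.12, edgeR adjusted p = 0.0154, which no longer passed without EXT1kd suspension replicate 2 (-0.37, edgeR adjusted p = 0.0505). The chromosome 3 median was -0.18 in this contrast. NRP1 went the other way, at -0.19 and 0.22, a difference of 0.41, SE 0.11, edgeR adjusted p = 0.00951 that passed with each of the 12 libraries left out in turn (0.34 to 0.50). PLXNB2 had -0.34 and -0.37, a difference of -0.03, SE 0.11, edgeR adjusted p = 0.872. PLXNA3 differed by -0.29, SE 0.16, edgeR adjusted p = 0.196, and passed without WT adherent replicate 3 (edgeR adjusted p = 0.0442).

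**Figure D3:**
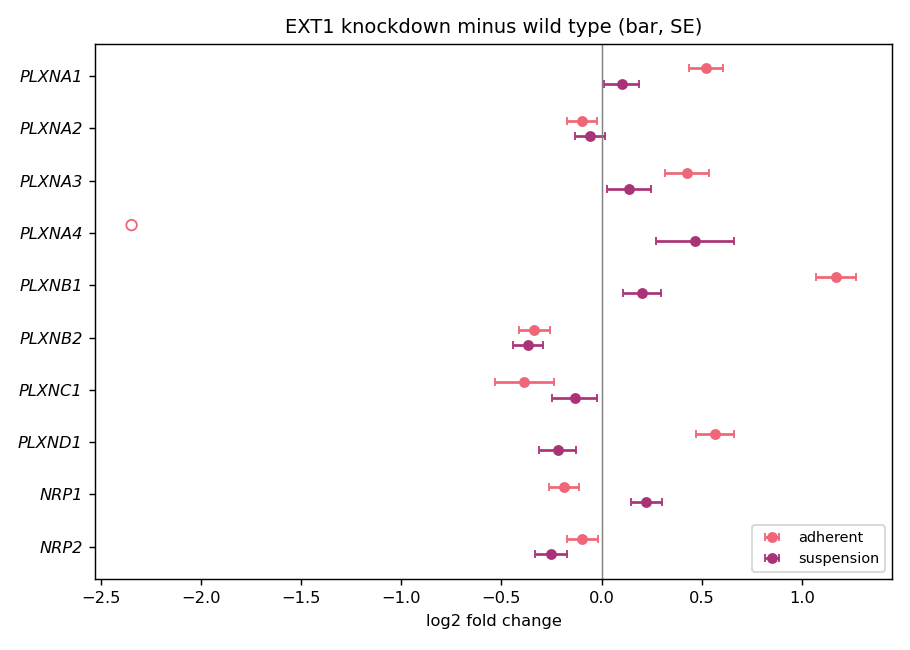
Log2 fold change of each gene, knockdown minus wild type, in adherent and suspension culture (x axis; bars, SE of the fit; open circle, PLXNA4 in adherent cells, shown without error because its reads there entered the choice of genes). PLXNB1, PLXND1 and PLXNA1 lie at 1.17, 0.57 and 0.52 in adherent cells and at 0.20, -0.22 and 0.10 in suspension.

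The culture comparisons asked how suspension growth differs from adherent growth in each line. They share the adherent and suspension libraries with the knockdown comparisons, so the values of a gene in both are set side by side and not counted as separate support. In wild-type cells PLXNA4, PLXNC1, PLXNB2, PLXNB1, PLXND1 and PLXNA3 were higher in suspension and PLXNA1 and NRP1 lower, 8 of 10 members, where 55.7% of all genes passed, 27.7% higher and 28% lower. The median over the 10 was 0.71, against -0.02 over all genes. In knockdown cells PLXNC1, PLXNB2 and NRP1 were higher and PLXNA1 lower, 4 of the 9 tested members, where 55.7% of all genes passed, 26.8% higher and 29% lower. The median over those 9 was 0.12, against -0.01 over all genes.

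PLXNC1 was under 5 CPM in every adherent library and at 16.6, 15.6 and 17.3 CPM (wild type) and 15.4, 15.9 and 13.9 CPM (knockdown) in suspension libraries. The rise was 3.59-fold in wild type (1.84, SE 0.13, edgeR adjusted p = 6e-10) and 4.27-fold in the knockdown (2.09, SE 0.13, edgeR adjusted p = 2.29e-10). CEP83, a gene of the opposite strand, shares 1227 bases with the end of PLXNC1 and had 6879 reads over the 12 libraries against 1971 for PLXNC1. The strand setting of the counting is not given in the sources used here, so reads from that stretch cannot be told apart. CEP83 itself was at 0.23 in wild type (edgeR adjusted p = 0.0431) and at 0.49 in the knockdown (edgeR adjusted p = 0.000196).

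PLXNB2 rose 2.29-fold in wild type (1.20, SE 0.08, edgeR adjusted p = 2.82e-10) and 2.25-fold in the knockdown (1.17, SE 0.08, edgeR adjusted p = 4.22e-10), with all 6 suspension libraries above all 6 adherent ones. Less the chromosome 22 median of -0.22, the knockdown value was 1.38. PLXNB1 rose in wild type (0.98, SE 0.10, edgeR adjusted p = 1.62e-07) and was at 0.01 in the knockdown (edgeR adjusted p = 0.926), whose adherent libraries already held 31.9 to 32.7 CPM. PLXND1 likewise rose in wild type (0.90, SE 0.10, edgeR adjusted p = 2.32e-07) and was at 0.12 in the knockdown (edgeR adjusted p = 0.308). The tests of the difference for both are the ones given above, since the 2 ways of taking it are the same contrast.

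PLXNA3 rose in wild type (0.53, SE 0.11, edgeR adjusted p = 0.000527). In the knockdown it was at 0.24 (edgeR adjusted p = 0.0730), and it passed there with DESeq2 (adjusted p = 0.0400), without TMM scaling (edgeR adjusted p = 0.0290), without the filter (edgeR adjusted p = 0.0246), in a fit of only the 6 libraries (edgeR adjusted p = 0.0163), without EXT1kd adherent replicate 3 (0.39, edgeR adjusted p = 0.00663) and without WT adherent replicate 3 (edgeR adjusted p = 0.0410). PLXNA1 was the plexin that fell, in wild type from 118 to 83.3 CPM (-0.50, SE 0.09, edgeR adjusted p = 6.28e-05) and in knockdown cells from 169 to 89.3 CPM (-0.92, SE 0.09, edgeR adjusted p = 3.31e-08). In knockdown cells the chromosome 3 median was -0.25, which left -0.67 for PLXNA1. PLXNA2 did not pass in either line (0.06 and 0.10, edgeR adjusted p = 0.513 and 0.274).

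NRP1 fell in wild type (-0.21, SE 0.08, edgeR adjusted p = 0.0246) with overlapping groups, and rose in the knockdown (0.20, SE 0.08, edgeR adjusted p = 0.0324) with groups apart. The first call was lost in 8 of the 12 fits that left out a library, those without EXT1kd adherent replicates 1 to 3, EXT1kd suspension replicate 1, WT adherent replicates 1 and 2 and WT suspension replicates 1 and 2 (edgeR adjusted p from 0.0503 to 0.0977), and in 5 other settings. The second was lost without EXT1kd adherent replicate 2 and without EXT1kd suspension replicates 2 and 3 (edgeR adjusted p from 0.0572 to 0.0709), and without the filter on low counts. Chromosome 10 had a median of 0.15 in knockdown cells, which left 0.05 for NRP1. NRP2 did not pass in wild type (0.02, edgeR adjusted p = 0.827) or in the knockdown (-0.13, edgeR adjusted p = 0.168).

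**Figure D4:**
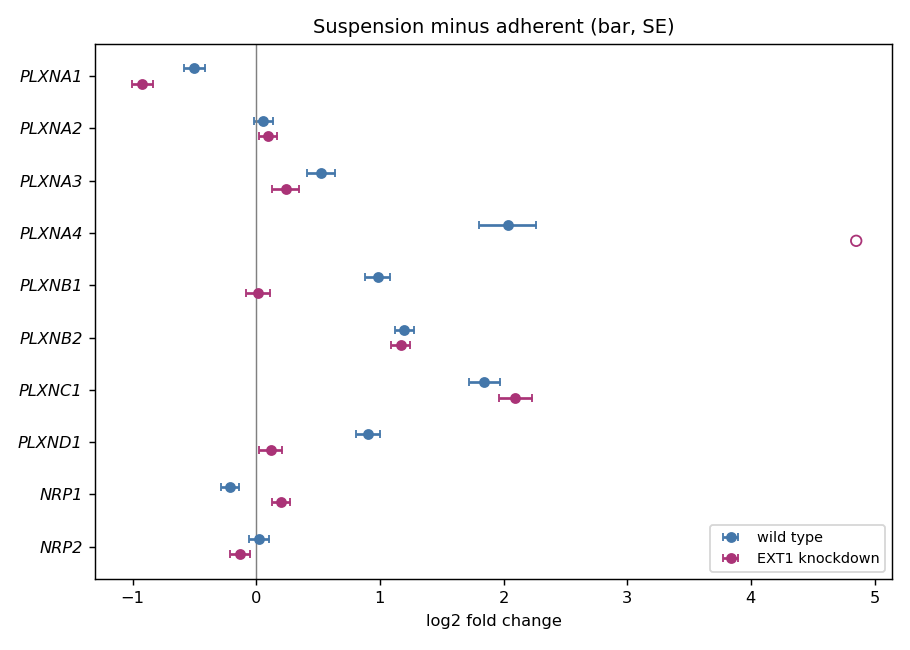
Log2 fold change of each gene, suspension minus adherent, in wild-type and EXT1 knockdown cells (x axis; bars, SE of the fit; open circle, PLXNA4 in knockdown cells, shown without error because its adherent knockdown reads entered the choice of genes). PLXNC1 and PLXNB2 lie at 1.84 and 1.20 in wild type and at 2.09 and 1.17 in the knockdown, and PLXNA1 lies below 0 in both.

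PLXNA4 (chromosome 7 from 132123332 to 132648688, minus strand), an A-type plexin that in neurons receives SEMA3A with NRP1, had the widest spread of the 10. Adherent libraries had 18, 59 and 52 reads in wild type and 11, 6 and 5 in the knockdown, and suspension libraries 183, 147 and 144 and 187, 225 and 240. In CPM these were 1.09, 3.35 and 2.50, then 0.634, 0.439 and 0.285, then 10.3, 8.60 and 9.95, then 12.7, 13.7 and 13.5. Wild-type adherent replicate 1 was below the other 2 of its group, and no 2 of the 4 groups overlapped.

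The low adherent knockdown level of PLXNA4 was known when the list was made and is only described. On 22 reads against 129 it was lower by 5.19-fold, and suspension knockdown libraries were above it by 29.4-fold. No interval is given for these 2 values, since those reads entered the choice of genes. The exact binomial intervals given below for other genes with few reads pool the reads of each group, so they leave out the spread between libraries. PCR copies of 1 molecule also count as several reads, so those intervals give no more than the counting error. In wild-type cells PLXNA4 rose 4.10-fold in suspension (2.04, SE 0.23, edgeR adjusted p = 5.32e-07), with values of 1.72 to 2.36 when single libraries were left out. In suspension the knockdown libraries were all above the wild-type ones, but the rise did not pass (0.47, SE 0.19, edgeR adjusted p = 0.0952). It passed without WT adherent replicate 1 (edgeR adjusted p = 0.0269) or 2 (edgeR adjusted p = 0.0339), in a fit of only the 6 libraries (edgeR adjusted p = 0.00302), without the filter (edgeR adjusted p = 0.0340) and on the log2(FPKM + 1) scale (limma adjusted p = 0.0230).

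PLXNB3 (chromosome X from 153764196 to 153779346, plus strand), a receptor of SEMA5A, had 10, 11 and 15 reads in wild type and 3, 0 and 6 in the knockdown when adherent, and 20, 8 and 8 and 23, 16 and 13 in suspension. All groups were at or under 1.09 CPM on average. On 9 reads against 36, adherent knockdown cells were lower by 3.54-fold (95% exact binomial interval 1.67 to 8.35). Knockdown cells had more in suspension, 5.73-fold (95% exact binomial interval 2.80 to 13.2). PLXNB3 passed the filter on low counts through none of its adherent knockdown libraries, which were at 0.342 CPM or less. That favours both gaps, so both are description. The suspension knockdown value did not pass (0.56, edgeR adjusted p = 0.408), and neither did the wild-type culture value (0.14, edgeR adjusted p = 0.813).

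For each of the 3 members with the widest spread, the protein-coding genes with the closest pattern of group means were looked up among 12915 candidates with a mean of at least 1 CPM. Likeness was the root mean square distance between centred group means of log2 CPM, with an offset of 0.1 CPM, over the 4 groups. Closest to PLXNA4 were LSAMP (distance 0.21), ETV4 (0.24) and SHC4 (0.26), on a PLXNA4 range of 4.65. The low end of that range is the adherent knockdown mean (-2.72 once centred), which entered the choice of genes. The PLXNA4 matches are thus description only. TMEM59L, GAL3ST4 and TMEM107 lay closest to PLXNC1, at 0.04, 0.05 and 0.05 on a range of 2.20. LRRC23, LMO2 and GFRA1 lay closest to PLXNB2, at 0.02, 0.05 and 0.05 on a range of 1.53.

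The ligands were taken as a list of 20 semaphorins, all of which passed the filter. In adherent knockdown cells 3 rose and 4 fell (35% passing, where 27.1% of all genes passed), with a median of 0.03. SEMA6B, a transmembrane ligand of A-type plexins, rose (0.69, SE 0.14, edgeR adjusted p = 0.00165), and so did SEMA4B (0.60) and SEMA4D, the ligand of PLXNB1 (0.53, SE 0.09, edgeR adjusted p = 0.000245). SEMA4D was at 23.96, 22.7 and 23.1 CPM (wild type) and 31.3, 33.9 and 35.3 CPM (knockdown) in adherent libraries. SEMA4D lies on chromosome 9, whose median was 0.27 and left 0.25. The part of that shift was not tested. SEMA5A fell (-0.81, SE 0.21, edgeR adjusted p = 0.00705), as did SEMA6D (-0.40), SEMA6A (-0.31, or -0.18 less its chromosome median) and SEMA3C (-0.27).

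In suspension 3 semaphorins rose and 4 fell with the knockdown (35%, where 20.9% of all genes passed), with a median of -0.02. SEMA5A, a transmembrane semaphorin with thrombospondin repeats that bind sulfated glycosaminoglycans, had the largest fall, from 24.4, 24.7 and 28.2 CPM to 6.51, 4.32 and 4.54 CPM (-2.34, SE 0.15, edgeR adjusted p = 1.82e-09). SEMA4A (lower by 2.11-fold (95% exact binomial interval 1.55 to 2.90)), SEMA3F (-1.05) and SEMA4F (-0.53) also fell. SEMA3C (0.50, SE 0.07, edgeR adjusted p = 0.000123), SEMA4D (0.43, SE 0.09, edgeR adjusted p = 0.00183) and SEMA3A (0.36, SE 0.08, edgeR adjusted p = 0.00388) rose. Less the chromosome 9 median of 0.31, the SEMA4D value was 0.12. SEMA3A and SEMA3F are the classic neuropilin ligands, of NRP1 and NRP2 respectively. In adherent cells their knockdown values were 0.04 and -0.24, and neither passed (edgeR adjusted p = 0.772 and 0.418).

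Between cultures, 13 semaphorins were higher and 2 lower in wild-type suspension cells (75%, where 55.7% of all genes passed), with a median of 0.46, and 10 higher and 2 lower in knockdown cells (60% against 55.7%), with a median of 0.23. SEMA5A rose from 2.91, 2.73 and 3.12 CPM to 24.4, 24.7 and 28.2 CPM in wild type (3.13, SE 0.16, edgeR adjusted p = 8.12e-12). SEMA4A was higher by 9.17-fold (95% exact binomial interval 5.44 to 16.5) on 132 suspension reads against 16. Its wild-type adherent libraries were at 0.284 to 0.303 CPM. SEMA4A passed the filter on low counts only through its suspension reads, which favours a rise. The same holds for SEMA5B, whose adherent libraries were at 0.546 to 0.624 CPM (wild type) and 0.399 to 0.731 CPM (knockdown). Both count among the 13 and the 10, and their places there are no independent support. SEMA3A, at 19.05, 20.7 and 17.7 CPM in wild-type adherent libraries, rose to 34.3, 35.8 and 33.4 CPM (0.85, SE 0.09, edgeR adjusted p = 1.1e-07), and in knockdown cells its rise was 1.17. SEMA3G and SEMA6D (-0.94 and -0.44) were the 2 that fell in both lines. On few reads SEMA3G was lower by 3.35-fold (95% exact binomial interval 2.21 to 5.24) in wild type and by 2.57-fold (95% exact binomial interval 1.70 to 3.97) in the knockdown. SEMA7A, the PLXNC1 ligand, was at 0.44 in wild type (edgeR adjusted p = 0.0257) and -0.03 in the knockdown (edgeR adjusted p = 0.889), and SEMA3E, the PLXND1 ligand, at 0.09 (edgeR adjusted p = 0.556) and 0.33 (edgeR adjusted p = 0.0278).

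**Figure D5:**
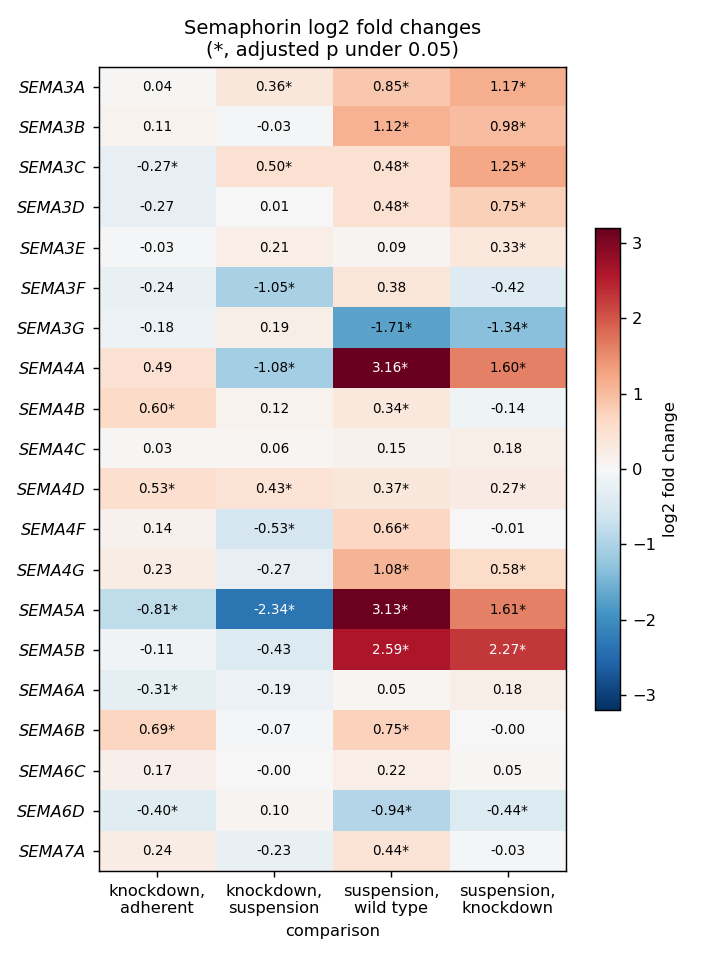
Log2 fold changes of the 20 semaphorins (rows) in the 4 comparisons of 2 groups (columns), coloured from blue (lower) to red (higher), with an asterisk where the edgeR adjusted p was under 0.05. SEMA5A is at -0.81 and -2.34 in the knockdown columns and at 3.13 and 1.61 in the culture columns.

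Of the VEGF ligands and receptors that pair with neuropilins, 7 of 8 passed the filter and VEGFD did not. In adherent knockdown cells 1 of the 7 rose and 3 fell, and in suspension 0 rose and 4 fell (57.1% in each, where 27.1% and 20.9% of all genes passed), with medians of -0.10 and -0.44. VEGFA, the main angiogenic VEGF, stood at 58.2, 55.9 and 61.02 CPM (wild type) and 47.3, 49.4 and 46.5 CPM (knockdown) in adherent libraries (-0.29, SE 0.08, edgeR adjusted p = 0.0152), with a log2 change of -0.06 in suspension (edgeR adjusted p = 0.678). VEGFB rose in adherent (0.46) and fell in suspension knockdown cells (-0.63), a difference past the threshold (-1.09, SE 0.20, edgeR adjusted p = 0.000659). Chromosome 11, which carries VEGFB, had medians of 0.27, -0.22 and -0.48 in these contrasts, which left 0.19, -0.40 and -0.61, and their part was not tested. PGF fell in adherent cells with overlapping groups (-0.42, edgeR adjusted p = 0.0412). In suspension its groups were apart (-0.92, edgeR adjusted p = 0.000416, or -0.56 less its chromosome median). FLT1 was lower in suspension in wild-type (-1.05) and knockdown cells (-1.68). Between cultures, 1 of the 7 was higher and 3 lower in wild type, and 1 higher and 4 lower in the knockdown (57.1% and 71.4%, where 55.7% of all genes passed in each).

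All 8 co-receptors looked up passed the filter. In adherent knockdown cells 1 rose and 1 fell, in suspension 2 rose and 2 fell, and suspension growth went with 4 higher and 1 lower in wild type and 4 higher and 2 lower in the knockdown. The shares passing were 25%, 50%, 62.5% and 75%, where 27.1%, 20.9%, 55.7% and 55.7% of all genes passed, and the medians were -0.08, -0.17, 0.38 and 0.21, all in that order. L1CAM, an adhesion molecule that associates with NRP1 in SEMA3A signalling, was at 4.31 ± 0.277 CPM (wild type) and 9.56 ± 0.725 CPM (knockdown) in suspension libraries, SD with n = 3 (1.15, SE 0.22, edgeR adjusted p = 0.00106). In adherent cells it was at -0.36 (edgeR adjusted p = 0.410), and the difference passed (1.51, SE 0.37, edgeR adjusted p = 0.00632). Its close relative CHL1 fell in both cultures on few reads, by 2.27-fold (95% exact binomial interval 1.49 to 3.53) in adherent and 2.98-fold (95% exact binomial interval 1.63 to 5.75) in suspension cells, both past the threshold (edgeR adjusted p = 0.0246 and 0.0242). CHL1 passed the filter on low counts mainly through its wild-type libraries, which favours such falls. MET, a kinase that associates with PLXNB1, was among the co-receptors that rose in suspension knockdown cells (0.22, SE 0.07, edgeR adjusted p = 0.0395), at 0.11 less its chromosome median.

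Of 34 intracellular partners, all past the filter, 9 rose and 5 fell in adherent knockdown cells (41.2%, where 27.1% of all genes passed), and 4 rose and 10 fell in suspension (41.2% against 20.9%), with medians of 0.03 and -0.03. MRAS, a Ras-family GTPase, was at 5.58, 5.28 and 4.95 CPM (wild type) and 10.6, 10.4 and 9.12 CPM (knockdown) in adherent libraries (0.93, SE 0.14, edgeR adjusted p = 7.03e-05). In suspension it went down, from 9.53 to 6.94 CPM (-0.46, SE 0.14, edgeR adjusted p = 0.0198). MRAS lies on chromosome 3, whose median was 0.25 for the knockdown in adherent cells and 0.05 in suspension. The part of these shifts was not tested. RND1, which binds plexin cytoplasmic parts, rose in suspension (0.62, SE 0.21, edgeR adjusted p = 0.0403).

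DPYSL3, of the collapsin response mediator family that acts below semaphorin receptors, fell in adherent cells (-0.45, SE 0.07, edgeR adjusted p = 9.19e-05). The tyrosine kinase FES also fell there (-1.06). RHOD, another plexin-binding GTPase, had 3, 1 and 2 reads in wild-type adherent and 7, 9 and 9 in adherent knockdown libraries, higher by 4.71-fold (95% exact binomial interval 1.89 to 14.04). In suspension it had 15, 13 and 8 reads in wild type and 0, 1 and 0 in the knockdown, lower by 35.7-fold (95% exact binomial interval 6.01 to 1449). RHOD passed the filter only through libraries of the groups where it was high, which favours such gaps, so both are description. It is still counted among the 34 partners in every comparison, and its part in those counts and shares is no independent support. With so few reads its fitted values are not given.

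Between cultures, 12 partners were higher and 11 lower in wild type (67.6%, where 55.7% of all genes passed) and 12 higher and 15 lower in the knockdown (79.4% against 55.7%). MICAL2, of a family of actin-oxidizing enzymes, rose in both lines (1.41 and 0.85), whereas TIAM1, an activator of RAC1, fell in both (-0.98 and -0.75). RAC1 itself, which plexin cytoplasmic parts bind, did not pass in any of the 4 comparisons, with values between -0.12 and 0.08.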

How the data were processed

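Poly-A RNA of 12 HEK293 libraries was sequenced. Per the submitters' processing notes the authors made the deposited counts, whole reads per gene, using GRCh38, HISAT2 and featureCounts 1.5.0. The HISAT2 version, annotation release and strand setting were not given in the sources used here. Deposited FPKM values divide the same reads by gene length and library size. The median ratio of deposited FPKM to the value computed from the counts lay between 0.942 and 1.03 in each library. FPKM was used for levels between genes and, as log2(FPKM + 1) and log2(FPKM + 0.1), for alternatives with limma. Gene length in FPKM is that of the deposited table, so levels between genes carry its gene models.

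Counts were tested with edgeR 4.0.16 (R 4.3.3): filterByExpr by group kept 17115 genes with 99.9% of reads, TMM scaling, 1 mean per group over all 12 libraries, quasi-likelihood F-tests, Benjamini-Hochberg over all genes, threshold 0.05. SE is the absolute log2 fold change over the square root of F. The fit was checked on simulated counts. DESeq2 1.42.0 and limma 3.58.1 were run as alternatives, with other scalings, filters, sample sets, a replicate block and each library left out. Exact binomial intervals at 95%, on the pooled reads of each group, are given for genes with under 10 reads in a library. PLXNA4 is left out of these, as its adherent knockdown reads entered the choice of genes. The members, gene lists, markers and the rule for named genes were chosen with earlier results of these data known. Named genes are the members, PLXNB3, EXT1, up to 6 list members with the largest changes past the threshold per comparison, SEMA3A, SEMA3F and VEGFA; SEMA7A, SEMA3E and RAC1 were named after their values were seen. Promoter windows come from RefSeq on GRCh38.p14.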

Additional observations from a re-analysis of the deposited data

Results flagged for a closer look

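For 4 genes the knockdown effect in suspension differed from that in adherent cells in the test of the difference itself (edgeR's quasi-likelihood test, adjusted over all genes). PLXNB1 differed by -0.97, edgeR adjusted p = 7.05e-05. PLXND1 differed by -0.79, edgeR adjusted p = 0.000365, with a rise in adherent cells and all 3 knockdown libraries below wild type in suspension. PLXNA1 differed by -0.42, edgeR adjusted p = 0.0154. That call was lost without EXT1kd suspension replicate 2 (-0.37, edgeR adjusted p = 0.0505), and less the chromosome 3 median of -0.18 the PLXNA1 value was -0.24. The same median left -0.79 for PLXNB1 and -0.61 for PLXND1. NRP1 differed by 0.41, edgeR adjusted p = 0.00951, with all 3 knockdown libraries above wild type in suspension. Across all genes 24% passed this test.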

How the results depend on the processing

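Over 884 pairs of a tested member value and an alternative setting, direction and side of the threshold stayed the same in 815, 44 lost a call, 19 gained one and 6 changed sign. All 6 sign changes were of values that passed in no setting: with single libraries left out, NRP2 by culture in wild type ran from -0.0146 to 0.0561, PLXNB1 by culture in the knockdown from -0.0269 to 0.0564, and the PLXNB2 difference of knockdown effects from -0.133 to 0.0327. The number of members called in suspension knockdown cells, 3 in the report, was 1 on the log2(FPKM + 0.1) scale and 6 in a fit of just those 6 libraries, and ran from 1 to 5 with single libraries left out. The other counts of members stayed within 1.5 times under each alternative run. With single libraries left out they ran from 4 to 7 for the knockdown in adherent cells, 7 to 8 for culture in wild type, 3 to 5 for culture in the knockdown and 3 to 5 for the difference. The cause of these shifts was not tested.

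The share of all genes called fell without the filter on low counts, which adds genes with few reads to those tested, to 11.9% for the knockdown in adherent cells, 9.39% in suspension, 10.4% for the difference and 25.9% for culture in each line. In suspension knockdown cells it was 32.8% in a fit of just the 6 libraries in question. With single libraries left out it ran from 17.9 to 29% for the adherent and from 12.6 to 26.8% for the suspension knockdown. On the log2(FPKM + 1) scale PLXNA4 changes shrink, since its FPKM lies under the pseudocount: the adherent knockdown value was -0.15, and -0.87 with a pseudocount of 0.1.

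Replicate numbers are shared between groups in the labels, but in only 7 of 18 pairs of same-numbered libraries did deviations from the group means correlate above 0.1 (r from -0.29 to 0.34 over 11689 genes), so the numbers are not taken to pair the libraries. With the replicate block the counts of members called were 5, 2, 8, 4 and 4 for the 2 knockdown comparisons, the 2 culture comparisons and the difference, where NRP1 in suspension knockdown cells was the call lost (edgeR adjusted p = 0.0528). Counting error limits PLXNA4 in adherent knockdown libraries, with 22 reads in all, as well as PLXNB3 and RHOD.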
